A study of Oncorhynchus mykiss with 43 samples.

Results

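The expression of 3 transcripts of the muscle fibre was followed in the fast muscle of rainbow trout (Oncorhynchus mykiss) that were starved and then fed again. They were the cDNA clones tcbk0010.m.14, named troponin T, cardiac muscle isoforms; tcbk0048.c.24, named tropomyosin alpha 4 chain; and 1RT38L12_D_F06, named dystrophin. The clones were chosen by these identifiers and names, and they make up 3 of the 9023 clones on the array. Muscle came from 43 trout of a spring strain, aged 1 year. The fish fell into a fasted group, deprived of food for a month (8 fish), and groups that had fasted in the same way and were then fed again until day 4 (9 fish), day 7 (9 fish), day 11 (8 fish) or day 36 (9 fish). Refed fish were given a ration above the normal one, and the water was colder at each later sampling, so that temperature, season and time of refeeding cannot be told apart. A fasted group is the baseline throughout, since fish fed without interruption were not among these samples. Each fish had an array of its own.

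Troponin T and tropomyosin belong to the thin filament of the sarcomere, the contractile unit of the muscle fibre. Tropomyosin lies along the actin filament, and troponin T fastens the calcium-sensing troponin complex to it, so that together they control when myosin can bind actin. Dystrophin works at another site, under the cell membrane, where it links the actin cytoskeleton to a complex of membrane proteins that reaches the extracellular matrix. In mammals its loss makes fibres fragile during contraction and causes muscular dystrophy. By the protein families of the clones, the comparison below is thus between transcripts of the thin filament and a transcript of the anchor that ties the fibre to its surroundings. The tropomyosin family has cytoskeletal as well as sarcomeric members, and the name of this clone does not by itself place it in the sarcomere. The term thin-filament is used below for the family only.

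The names rest on the best protein match of each clone, and a spotted cDNA can also bind transcripts of close relatives, which the trout genome holds in duplicate for many genes. A signal of the troponin T clone is therefore not proof of a cardiac isoform in fast muscle. Markers of fast muscle and of other cell types were not checked here, because the table of values names no genes. In slices of whole muscle, a change in the share of fibres or other cells and a change in the transcript per cell cannot be told apart.

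The values were intensities of 33P-labelled cDNA, divided for each spot by the amount of spotted DNA and then scaled to the array's median, on a linear scale with no unit. An array gave a value for 1441 to 2616 clones (median 2200). Troponin T and tropomyosin alpha 4 had a value in all 43 fish and dystrophin in 42, the exception being fasted fish 7 (7 of 8 fasted fish with a value, exact Fisher p = 0.471 against the 9 of 9 at 7 days, two-sided). All 3 clones were among the 1561 that no group measured in fewer than 5 fish, which were tested together in limma on log2 values. A clone was called as higher or lower at an adjusted p under 0.0001 (Benjamini-Hochberg over the 1561 clones). Levels of different clones are not compared, since the intensity depends on the spotted cDNA.

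All 3 transcripts were higher after refeeding, and their means were not all highest at the same time. Troponin T had nearly its whole increase at 7 days and tropomyosin alpha 4 most of it, and both had their highest mean at 11 days. Their steps from 7 to 11 days (log2 change 0.04, SE 0.21, and 0.19, SE 0.14) could not be told from the spread. Nor could their steps from 11 to 36 days. Dystrophin was close to the fasted level at 4 days and had its highest mean at 36 days. All 3 were called as higher than in fasted fish at 11 days, troponin T alone at 7 days and dystrophin alone at 36 days. Of all clones tested, 3.27%, 5.00% and 5.38% were called as higher at 7, 11 and 36 days. Tropomyosin alpha 4 narrowly missed the threshold at 7 and 36 days (limma adjusted p = 0.000227 and 0.000123), and some other settings given below called it at both. Troponin T missed the threshold at 36 days (limma adjusted p = 0.000559), although its log2 change of 0.94 was larger than the 0.74 of dystrophin. At an adjusted p under 0.05 all 3 were called as higher at 7, 11 and 36 days, as were 194, 257 and 228 of the 1561 clones. That dystrophin gained on the others between 11 and 36 days was called only against troponin T (adjusted p = 0.0425, exact permutation test of the ratio within fish), and that call was lost on leaving out any of 21 single fish. Against tropomyosin alpha 4 it was not called (adjusted p = 0.0604). The study had picked these clones on the same fish, so that their direction is not independent evidence.

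**Figure D1:**
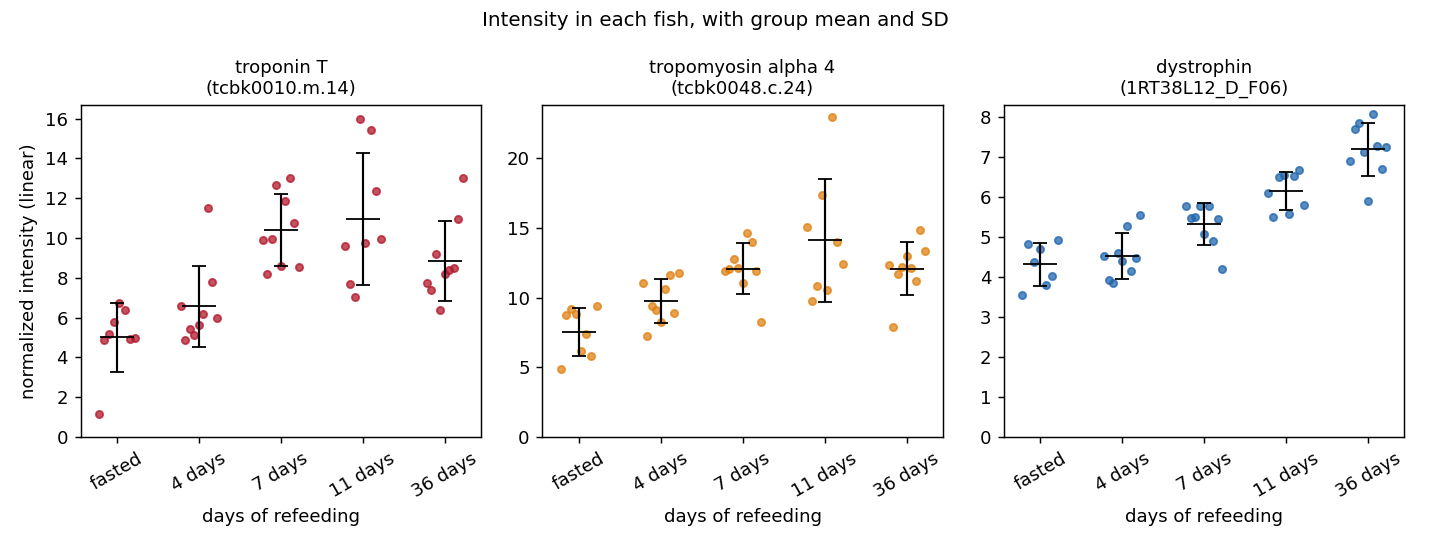
Normalized intensity (linear, no unit) of troponin T, tropomyosin alpha 4 and dystrophin in each fish (points) of the fasted group and the 4 refed groups, with the mean and SD of each group (black). Troponin T reached a mean of 10.4 at 7 days and dystrophin its highest mean, 7.21, at 36 days, and fasted fish 2 stood alone at 1.14 for troponin T.

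Troponin T, which holds the troponin complex on the thin filament, had its largest step in the mean between 4 and 7 days. Its intensity was 1.14 to 6.74 with a median of 5.06 in fasted fish, 4.85 to 11.5 (median 5.99) at 4 days, and 8.19 to 13.0 (median 9.96) at 7 days. It was 7.03 to 16.0 (median 9.84) at 11 days and 6.37 to 13.0 (median 8.37) at 36 days. Every fish at 7 and 11 days was above the highest fasted fish, while at 36 days 8 of 9 fish were and at 4 days 2 of 9. The group means were 5.00 ± 1.71, 6.56 ± 2.05, 10.4 ± 1.81, 11.0 ± 3.32 and 8.86 ± 2.00 (SD; n = 8, 9, 9, 8 and 9 from fasted to 36 days). In order of the mean the groups thus ran from fasted fish over 4, 36 and 7 days to 11 days, and the fish at 11 days spread around the range of those at 7 days, with 2 fish above it (15.4 and 16.0) and 2 below it (7.03 and 7.70).

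Against fasted fish, the log2 change of troponin T was 0.49 (SE 0.21, limma adjusted p = 0.147) at 4 days, 1.18 (SE 0.21, adjusted p = 4.56e-05) at 7 days, 1.22 (SE 0.22, adjusted p = 3.48e-05) at 11 days and 0.94 (SE 0.21, adjusted p = 0.000559) at 36 days. The calls at 7 and 11 days stand for folds of 2.27 and 2.33, and the change at 36 days, a fold of 1.92, missed the threshold. At 7 days the change ranked 10 from the highest among 1561 clones and at 11 days 11. Fasted fish 2, with an intensity of 1.14 against 4.87 to 6.74 in the other fasted fish, widened these changes: without it they were 0.20, 0.90, 0.94 and 0.66 at 4, 7, 11 and 36 days, and the calls at 7 and 11 days stood. Leaving out fish 5, 7, 8 or 9 of 7 days ended the call at 7 days (adjusted p up to 0.000154), and leaving out fish 5, 7 or 9 of 11 days ended that at 11 days (up to 0.000155). In a fit of only the fasted and the refed group compared, the adjusted p was 0.00143 at 7 days and 0.00259 at 11 days.

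Tropomyosin alpha 4, of the cytoskeletal and sarcomeric family of rods that lie along actin, had smaller fitted log2 changes than troponin T at all 4 times, although none of these differences was called. Its intensity was 4.89 to 9.36 with a median of 8.04 in fasted fish, 7.23 to 11.7 (median 9.36) at 4 days and 8.22 to 14.6 (median 12.04) at 7 days. It was 9.77 to 22.9 (median 13.2) at 11 days and 7.89 to 14.8 (median 12.2) at 36 days. The fish at 11 days were all above the fasted fish, whereas 8 of 9 fish at 7 days, 8 of 9 at 36 days and 4 of 9 at 4 days were above the highest of them. The means were 7.53 ± 1.73, 9.76 ± 1.56, 12.1 ± 1.83, 14.1 ± 4.39 and 12.1 ± 1.89 (SD; n as for troponin T), so that the means at 7 and 36 days were the same to this precision. Fish 7 of 11 days, at 22.9, was the highest of all 43.

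The log2 change of tropomyosin alpha 4 against fasted fish was 0.39 (SE 0.14, limma adjusted p = 0.0637) at 4 days and 0.70 (SE 0.14, adjusted p = 0.000227) at 7 days. At 11 days it was 0.89 (SE 0.15, adjusted p = 7.16e-06), the only one of the 4 that was called, and at 36 days 0.70 (SE 0.14, adjusted p = 0.000123). The fold at 11 days was 1.85, and it was called without any single fish too, with a log2 change of 0.78 to 0.95. The changes at 7 and 36 days lay close to the threshold. With SAM (significance analysis of microarrays), the test named in the study's methods, at a false discovery rate of 0.01% both were called, and so they were with array weights.

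Dystrophin differed from both in that each group had a higher mean than the group before it. Its intensity was 3.54 to 4.93 with a median of 4.39 in 7 fasted fish, 3.86 to 5.56 (median 4.48) at 4 days and 4.19 to 5.79 (median 5.48) at 7 days. It was 5.51 to 6.69 (median 6.31) at 11 days and 5.91 to 8.09 (median 7.26) at 36 days. The fish at 11 and 36 days were all above the fasted fish, 7 of 9 at 7 days and 2 of 9 at 4 days, and the fish at 36 days were also all above those at 4 days. The means were 4.32 ± 0.537, 4.53 ± 0.570, 5.33 ± 0.526, 6.16 ± 0.474 and 7.21 ± 0.664 (SD; n = 7, 9, 9, 8 and 9). Neighbouring groups overlapped throughout, with 8 of 9 fish at 36 days above the highest fish at 11 days.

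Against fasted fish, dystrophin had a log2 change of 0.07 (SE 0.08, limma adjusted p = 0.696) at 4 days, 0.31 (SE 0.08, adjusted p = 0.00622) at 7 days, 0.52 (SE 0.09, adjusted p = 8.65e-06) at 11 days and 0.74 (SE 0.08, adjusted p = 1.77e-09) at 36 days. The folds at the times called, 11 and 36 days, were 1.43 and 1.67. Its changes were thus smaller than those of troponin T at 7 and 11 days on the log2 scale, while its standard errors were less than those of both thin-filament transcripts. Between 36 and 4 days the change was 0.67 (SE 0.08, adjusted p = 2.01e-08), whereas it was 0.45 (adjusted p = 0.0800) for troponin T and 0.30 (adjusted p = 0.0751) for tropomyosin alpha 4. These calls of dystrophin stood without any single fish. Whether the change between 36 and 4 days differed between the transcripts was not tested, as no ratio within fish was compared there. Without the 5 arrays with the fewest values that change was 0.67 for both dystrophin and troponin T and 0.36 for tropomyosin alpha 4. Only the change of dystrophin passed the threshold in that setting. Leaving out single fish gave 0.38 to 0.56 for troponin T between 36 and 4 days. In a fit of only fasted fish and fish at 11 days, the adjusted p at 11 days was 0.000398 for dystrophin and 0.000656 for tropomyosin alpha 4, neither of them past the threshold.

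**Figure D2:**
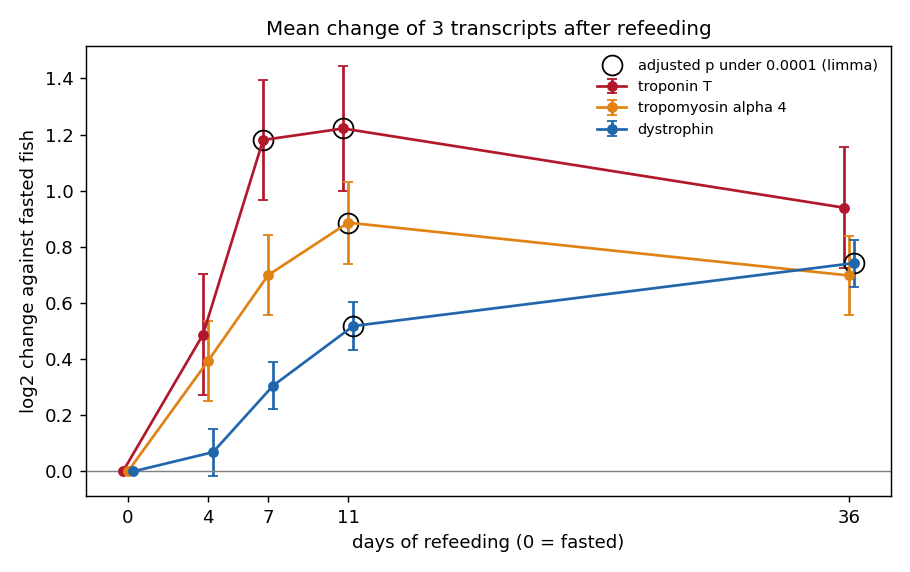
Log2 change against fasted fish of troponin T, tropomyosin alpha 4 and dystrophin (limma, error bars 1 SE), by days of refeeding, with fasted fish at 0 and symbols shifted slightly sideways. Ringed symbols were called, and troponin T reached 1.18 at 7 days while dystrophin reached 0.74 at 36 days.

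The counts of calls have to be read against all clones tested. As higher than in fasted fish limma called 0, 1, 3 and 1 of the 3 transcripts at 4, 7, 11 and 36 days, and 2.43%, 3.27%, 5.00% and 5.38% of the 1561 clones. No overlap with the fasted fish, all refed fish being higher, was seen for 0, 1, 3 and 1 of the 3, and for 3.14%, 3.14%, 4.74% and 3.65% of the clones. Between 36 and 4 days limma called 1.60% of the clones as higher, and in 2.24% all fish at 36 days were higher, dystrophin in both cases. Dystrophin shared its series of calls (at 11 and 36 days only) with 21 further clones, troponin T (7 and 11 days) with 6 and tropomyosin alpha 4 (11 days) with 4. The median log2 change of all clones lay between -0.05 and 0.01 in the comparisons with fasted fish.

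From one time to the next, few steps could be told from the spread. Between 7 and 4 days the log2 change was 0.69 (SE 0.21) for troponin T, 0.31 (SE 0.14) for tropomyosin alpha 4 and 0.24 (SE 0.08) for dystrophin. The step of troponin T had the highest value of all 1561 clones, but its adjusted p was 0.102, and limma called 0% of the clones there in either direction (132 had an unadjusted p under 0.05). Between 11 and 7 days, where limma again called 0% (68 at an unadjusted p under 0.05), the changes were 0.04 (SE 0.21), 0.19 (SE 0.14) and 0.21 (SE 0.08) for troponin T, tropomyosin alpha 4 and dystrophin. The small step of troponin T turned negative without fish 5 or fish 7 of 11 days.

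Between 36 and 11 days the signs of the fitted changes parted. Troponin T had a log2 change of -0.28 (95% interval -0.71 to 0.15) and tropomyosin alpha 4 of -0.19 (-0.47 to 0.10), and both intervals include 0. Without fish 3 of 36 days and fish 7 of 11 days, which deviated most from their groups over all clones, the change of tropomyosin alpha 4 was -0.0059. The median change of all clones in this step was -0.08, and 18.8% of clones lay below troponin T and 31.3% below tropomyosin alpha 4. Dystrophin had a change of 0.22 (0.06 to 0.39), with an adjusted p of 0.0383 in limma. At an adjusted p under 0.05 limma called 120 of the 1561 clones as higher and 260 as lower in this step. At the threshold of 0.0001 limma called 0.833% of the clones in this step, all as lower, and none of the 3. Expressed as a share of the largest log2 change of each transcript, troponin T stood at 39.9%, 96.6%, 100% and 76.9% at 4, 7, 11 and 36 days, tropomyosin alpha 4 at 44.4%, 78.9%, 100% and 78.8%, and dystrophin at 9.28%, 41.2%, 69.8% and 100%. These shares are descriptions without an error of their own.

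Whether the transcripts changed by different amounts was tested with their log2 ratio within each fish, in which the scale of the array cancels. An exact permutation test, two-sided, compared the mean ratio between groups, with p adjusted over 21 tests (3 pairs of transcripts in 7 comparisons, called at 0.05). A negative difference says that the transcript named first had the smaller change. Against fasted fish such a difference compares the size of 2 changes and not their timing, since a smaller change with the same time course gives it too. The same holds for a step in which both means went up and the transcript with the smaller change also had the smaller step. The step between 36 and 11 days, where the signs of the fitted changes parted, bears on timing. So does the step between 11 and 7 days, in which dystrophin had the largest log2 change and troponin T the smallest. The level of the ratio itself has no meaning, as it depends on the spots.

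Dystrophin had changed less than both thin-filament transcripts at 7 days. Over troponin T the mean log2 ratio was -0.95 ± 0.24 at 7 days (SD, n = 9) and 0.00 ± 0.77 in fasted fish (n = 7), a difference of -0.95 (SE 0.30, exact p = 0.00035, adjusted p = 0.00367), with 9 of 9 fish at 7 days below the fasted mean. Over tropomyosin alpha 4 it was -1.17 ± 0.16 at 7 days and -0.77 ± 0.22 in fasted fish (SD, n = 9 and 7), a difference of -0.39 (SE 0.10, exact p = 0.000262, adjusted p = 0.00367), again in 9 of 9 fish. Leaving out any single fish ended neither call, and without fasted fish 2 the difference over troponin T was -0.67. With medians in place of means both missed the threshold (-0.75 and -0.27, adjusted p = 0.0642 each). The difference over tropomyosin alpha 4 also missed it in a limma fit of the ratios with the replicate number as a block (-0.37, limma adjusted p = 0.0547). That fit replaced the permutation test as well as adding the block.

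At 4 days dystrophin over tropomyosin alpha 4 already differed by -0.33 (SE 0.11, exact p = 0.0083, adjusted p = 0.0385), lower than the fasted mean in 9 of 9 fish, but leaving out any of 7 single fish, fasted fish 2 and 8 among them, took the adjusted p to as much as 0.0621. The difference of dystrophin over troponin T at 4 days, -0.49, was not called (adjusted p = 0.222). At 11 days the difference over troponin T was -0.77 (SE 0.32, exact p = 0.0087, adjusted p = 0.0385), and -0.50 with an adjusted p of 0.0621 without fasted fish 2. In all, leaving out any of 11 single fish ended this call (adjusted p up to 0.0673). Over tropomyosin alpha 4 at 11 days it was -0.37 (SE 0.15, adjusted p = 0.0700), not called.

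Between 7 and 4 days the ratio of dystrophin over troponin T was lower, at -0.95 ± 0.24 at 7 days and -0.49 ± 0.42 at 4 days (SD, n = 9 each; difference -0.46, SE 0.16, exact p = 0.0142, adjusted p = 0.0425), with 9 of 9 fish at 7 days below the mean at 4 days. Leaving out any of 19 single fish (adjusted p up to 0.0700) or taking medians (-0.63, adjusted p = 0.0702) ended this call. Over tropomyosin alpha 4 the difference in that step was -0.07 (SE 0.09, adjusted p = 0.540), not called. Between 11 and 7 days no ratio was called by the exact permutation test. Dystrophin differed by 0.17 (SE 0.16, adjusted p = 0.429) over troponin T and by 0.03 (SE 0.14, adjusted p = 0.855) over tropomyosin alpha 4. Tropomyosin alpha 4 over troponin T differed by 0.15 (SE 0.10, adjusted p = 0.309).

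At 36 days the change of dystrophin could no longer be told from those of the others. The difference from fasted fish was -0.27 (SE 0.31, adjusted p = 0.540) over troponin T and 0.04 (SE 0.14, adjusted p = 0.821) over tropomyosin alpha 4, with errors that leave room for a difference in either direction. Between 36 and 11 days the ratio over troponin T was higher by 0.51 (SE 0.18, exact p = 0.0132, adjusted p = 0.0425), in 8 of 9 fish above the mean at 11 days. This call was lost on leaving out any of 21 single fish, with differences of 0.43 to 0.60 and an adjusted p up to 0.0831. It was also lost with medians (0.57, adjusted p = 0.217), without the 5 arrays with the fewest values (0.43, adjusted p = 0.0979) and without fish 3 of 36 days and fish 7 of 11 days (0.40, adjusted p = 0.121), which deviated most from their groups over all clones. The like difference over tropomyosin alpha 4 was 0.41 (SE 0.17, adjusted p = 0.0604), also in 8 of 9 fish. Over 5 other settings it was 0.23 to 0.43.

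**Figure D3:**
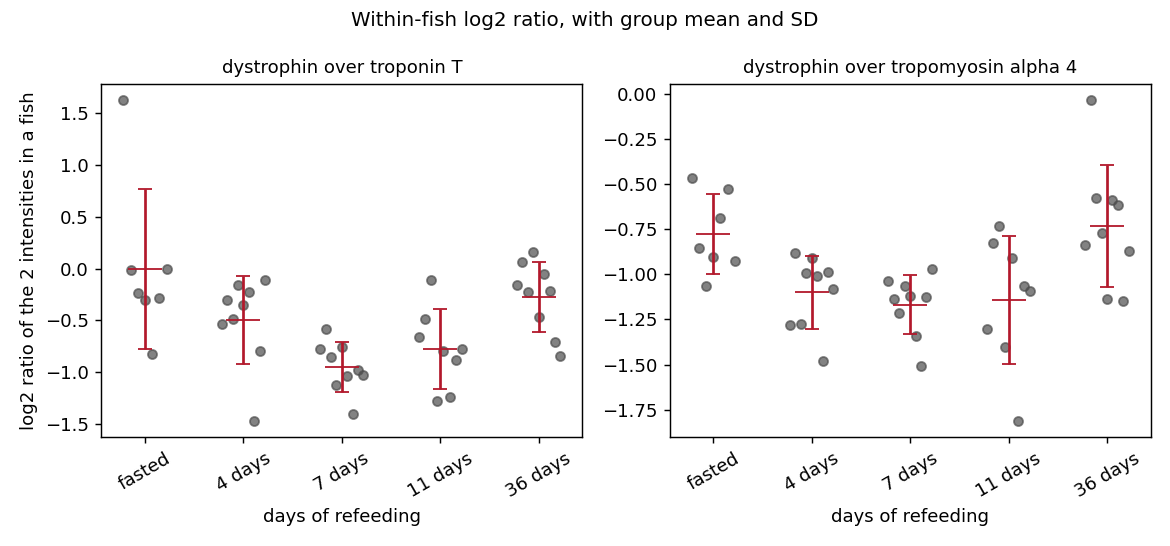
Log2 ratio of dystrophin over troponin T (left) and over tropomyosin alpha 4 (right) within each fish (points), by group, with mean and SD (red). The mean ratio over troponin T was -0.95 at 7 days and 0.00 in fasted fish, where fasted fish 2 lay far above the others, and both ratios were higher at 36 than at 11 days in most fish.

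The 2 thin-filament transcripts differed less clearly from each other. Tropomyosin alpha 4 over troponin T had a mean log2 ratio of 0.22 ± 0.21 at 7 days and 0.61 ± 0.32 at 4 days (SD, n = 9 each), a difference of -0.39 (SE 0.13, exact p = 0.00917, adjusted p = 0.0385), in 9 of 9 fish. This call was lost on leaving out any of 10 single fish (adjusted p up to 0.0625) and with medians in place of means (-0.48, adjusted p = 0.0812). Against fasted fish the differences were -0.09, -0.48, -0.34 and -0.24 at 4, 7, 11 and 36 days, with SEs of 0.25 to 0.26, and none was called (adjusted p = 0.0799 at 7 days, the lowest). Without fasted fish 2 they were 0.11, -0.28, -0.14 and -0.042.

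Among fish of the same group, the thin-filament transcripts went up and down together. After removal of the group means, tropomyosin alpha 4 and troponin T had a Pearson correlation of 0.61 over 43 fish (permutation p = 3e-05, adjusted 9e-05 over 3 pairs) and a Spearman correlation of 0.61 (permutation p = 4e-05, adjusted 0.00012). The correlation was 0.60 without the 2 fish farthest from the median in tropomyosin alpha 4, a choice made without regard to troponin T. It was 0.56 without fasted fish 2. It was 0.59, 0.57, 0.65, 0.86 and 0.49 within the fasted, 4, 7, 11 and 36 day groups. The values of a fish share its array, so that a shared scale raises correlations of all clones. Among 697 clones measured in every fish the median pair had a correlation of 0.10, and 96.4% of pairs were lower than that of tropomyosin alpha 4 and troponin T.

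Dystrophin varied with tropomyosin alpha 4 in all groups but the last. Their correlation over 42 fish was 0.50 (permutation p = 0.00133, adjusted 0.0020), with a Spearman correlation of 0.46 (p = 0.00441, adjusted 0.00661). Among the pairs of clones measured in every fish, 91.9% had a lower correlation. The correlation of dystrophin and tropomyosin alpha 4 was 0.49 without the 2 fish farthest from the median in dystrophin, and 0.44 without fasted fish 2. By group it was 0.93, 0.55, 0.72 and 0.64 from fasted fish to 11 days and -0.47 at 36 days, where the sign turned. The correlations within single groups were not tested, nor was whether 36 days differed from the other groups. With troponin T the correlation of dystrophin was 0.30 (permutation p = 0.0819, Spearman 0.28, p = 0.0790, adjusted alike), higher than in 76.6% of the pairs of clones. It was 0.11 without fasted fish 2, so that it rested largely on that fish.

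**Figure D4:**
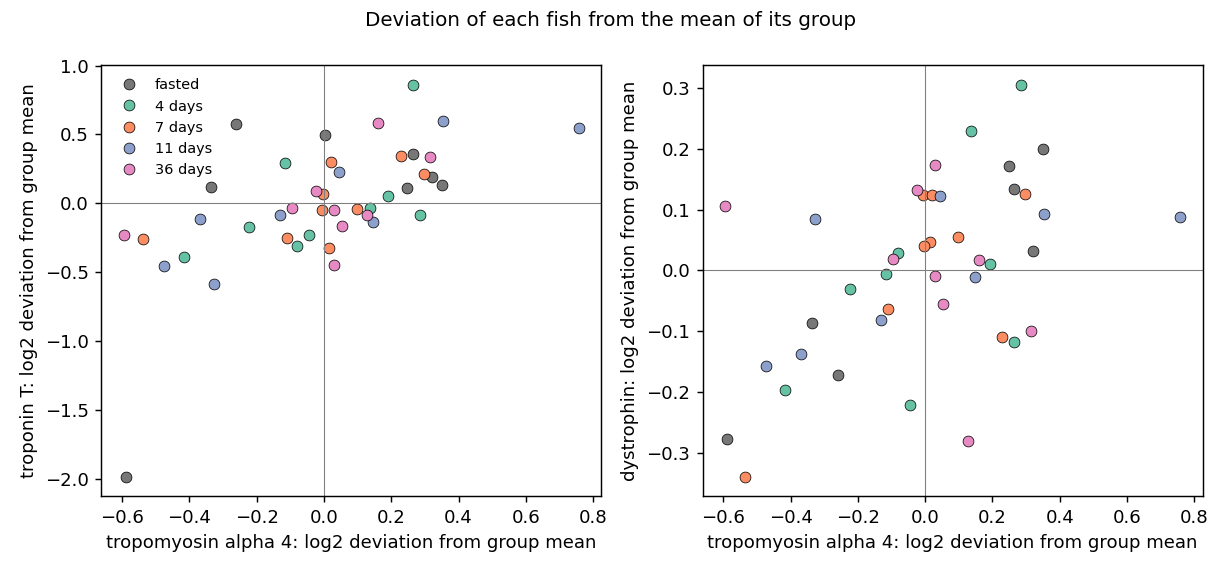
Log2 deviation of each fish from the mean of its group for tropomyosin alpha 4 (horizontal) against troponin T (left, 43 fish) and dystrophin (right, 42 fish), coloured by group. The correlation was 0.61 on the left, where fasted fish 2 lies at the lower edge, and 0.50 on the right.

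The spread between fish also set the transcripts apart. The SD of the log2 value within groups was 0.47 for troponin T, more than in 96.9% of the 1561 clones, 0.30 for tropomyosin alpha 4 (more than in 81.0%) and 0.15 for dystrophin (more than in 5.83%), with a median of 0.23 over the clones. The value of troponin T includes fasted fish 2, which deviated by -1.98 from its group mean. By group, the SD of troponin T was 0.82 in fasted fish and 0.38, 0.25, 0.43 and 0.31 from 4 to 36 days. Tropomyosin alpha 4 had 0.36 in fasted fish and 0.24, 0.24, 0.42 and 0.25 from 4 to 36 days. The SD over all groups without fasted fish 2 was not computed. Dystrophin was thus called at 11 days with a log2 change of 0.52, while troponin T was not called at 36 days with 0.94.

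As a description of likeness, each transcript was correlated over all fish with the clones that shared a value with it in at least 30 fish. Tropomyosin alpha 4 ranked 6 of 1691 clones by likeness to troponin T (r = 0.80), and troponin T ranked 7 of 1691 by likeness to tropomyosin alpha 4. Dystrophin ranked 68 for troponin T (r = 0.55) and 50 for tropomyosin alpha 4 (r = 0.66). The clone closest to tropomyosin alpha 4 was tcay0033.p.11 (r = 0.85 over 43 fish), with mean intensities of 6.46, 6.73, 8.74, 10.2 and 9.48 from fasted fish to 36 days, and that closest to dystrophin was 1RT34L03_B_F02 (r = 0.94 over 42 fish), with 10.8, 11.9, 15.2, 18.0 and 20.5. Neither clone carries a gene name in the sources used here. Clone tcay0033.p.11 had its highest mean at 11 days, as tropomyosin alpha 4 did, and clone 1RT34L03_B_F02 at 36 days, as dystrophin did. As both clones were chosen by their correlation over all fish, this likeness in time largely follows from the choice. These correlations contain the differences between groups and the scale shared by an array.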

How the data were processed

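RNA of a transverse slice of fast muscle was labelled with 33P, and each of 43 samples was hybridised to its own nylon array of trout cDNA clones. The authors scanned the arrays, left out spots with a weak oligonucleotide signal, and corrected each deposited intensity for the spotted DNA and for the median of its array. Genome builds play no part. Of 9216 rows, 193 control rows were omitted, and 0 columns were left unused. Empty cells (285556) and zeros (10107) were taken as missing, since the sources used here do not say what they stand for. Missing values were not imputed.

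Log2 intensities of 1561 clones were fitted in limma 3.58.1 (R 4.3.3, statmod 1.5.0), with a mean for each of 5 groups and no covariate. The threshold of 0.0001 equals in number the false discovery rate of 0.01% set for SAM in the study's methods, but the measures differ. Within-fish ratios were compared by exact permutation and correlations by 100000 permutations within groups, with Python 3.11.15, numpy 2.4.6, scipy 1.17.1, pandas 2.3.3 and matplotlib 3.10.9. For the ratios, the alternative with a replicate block was a limma fit of the ratios alone, without permutation. The limma fit of the 1561 clones and the exact permutation of means were tested on simulated data. The permutation of correlations and the limma fit of the ratios were not. Precision is limited by the number of arrays. The p-values take each fish as a replicate of its group and rest on the spread between these fish. In limma that spread was pooled over the 5 groups and drawn towards that of all clones tested.

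The members, the rules and the tests were chosen with earlier results of these data known. Named were the 3 transcripts and the clones closest to them in correlation, with 2 identifiers printed. Gene lists of the sarcomere, the dystrophin complex and cell types could not be used, because clones are not paired with genes here, and sequences of the clones were not used. The alternatives were another threshold, SAM with 100 permutations, quantile normalization, recentring, an offset of 0.1, other filters, fits of only the groups compared, array weights, a variance trend, the number of values as a covariate, the replicate number as a block, medians, and leaving out arrays with few values or single fish.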

Additional observations from a re-analysis of the deposited data

Results flagged for a closer look

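For each transcript, the highest and the lowest fish of a group were compared with the others by Dixon's test (95% level), which relates the distance to the next fish to the group's whole range, in 15 groups (3 transcripts, 5 groups of fish). Chance passes this level in about 5% of groups, and 2 of the 15 groups passed it, both of troponin T. Fasted fish 2 had an intensity of 1.1425 for troponin T, the lowest of its group, and its tropomyosin alpha 4 and dystrophin were also the lowest of the fasted fish, at 4.89 and 3.54. Fish 8 of 4 days had 11.5079, the highest of its group, with tropomyosin alpha 4 at 11.6 and dystrophin at 4.15, inside the range of the other fish. Without fish 8, the log2 change of troponin T between 7 and 4 days was 0.80, its highest value with a single fish left out.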

How the results depend on the processing

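Every log2 change against fasted fish was positive under all alternatives run. At an adjusted p under 0.05 tropomyosin alpha 4 at 7 days (0.70) and 36 days (0.70), dystrophin at 7 days (0.31) and troponin T at 36 days (0.94) were called too. Tropomyosin alpha 4 at 7 and 36 days was also called by SAM (0.70 each), with array weights (0.78 each) and without fish 3 of 36 days and fish 7 of 11 days (0.70 and 0.77), the fish with the widest deviations from their group over all clones, an alternative chosen after seeing the data. Lost were troponin T at 11 days with recentring (1.16) or without those 2 fish (1.14), and, with only the groups compared, troponin T at 7 (1.18) and 11 days (1.22) and tropomyosin alpha 4 (0.89) and dystrophin (0.52) at 11 days. The change of troponin T between 11 and 7 days was -0.033 with quantile normalization, -0.053 with array weights and -0.037 without those 2 fish. Leaving out single fish gave 0.90 to 1.26 and 0.94 to 1.31 for troponin T at 7 and 11 days, 0.61 to 0.77 for tropomyosin alpha 4 at both 7 and 36 days, and -0.044 to 0.12 for troponin T between 11 and 7 days. The number of clones called as higher at 4, 7, 11 and 36 days was 76, 109, 150 and 116 by SAM and 116, 194, 257 and 228 at an adjusted p under 0.05.

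For the ratios, medians gave 0.026 for tropomyosin alpha 4 over troponin T at 4 days. For dystrophin over troponin T they gave -0.75, -0.55 and 0.015 at 7, 11 and 36 days and 0.57 between 36 and 11 days, and over tropomyosin alpha 4 -0.16 and -0.27 at 4 and 7 days, none called. Without the 5 arrays with the fewest values tropomyosin alpha 4 over troponin T was -0.0052 and dystrophin over troponin T 0.43 (not called) between 36 and 11 days. Without the 2 fish that stood apart, dystrophin over troponin T was -0.71 at 11 days and 0.40 between 36 and 11 days, neither called, and dystrophin over tropomyosin alpha 4 was -0.044 at 36 days. Single fish left out gave, for tropomyosin alpha 4 over troponin T, -0.21 to 0.11 at 4 days and -0.60 to -0.28 at 7 days. For dystrophin over troponin T the ranges were -0.63 to -0.22, -0.91 to -0.50 and -0.41 to 0.0041 at 4, 11 and 36 days and 0.43 to 0.60 between 36 and 11 days. For dystrophin over tropomyosin alpha 4 they were -0.37 to -0.27, -0.43 to -0.27 and -0.044 to 0.095 at 4, 11 and 36 days, 0.32 to 0.47 between 36 and 11 days and -0.034 to 0.12 between 11 and 7 days. As p was adjusted over 21 tests together, leaving out a fish of another group could also end a call. The cause of the other changes was not tested.

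Fish were not treated as paired by replicate number. The 82 pairs of the same number had a mean correlation of 0.03 (from -0.49 to 0.51), and 31 were over 0.1. For 657 pairs of different numbers the mean was -0.004, and the difference was not tested. With the number as a replicate block no log2 change of the 3 transcripts changed its call. For the ratios the block was fitted in limma in place of the permutation test, so that a changed call cannot be credited to the block alone. In that fit, tropomyosin alpha 4 over troponin T at 7 days against fasted fish (-0.46) was called. Dystrophin over tropomyosin alpha 4 was not called at 4 (-0.30) and 7 days (-0.37) against fasted fish, but was between 36 and 11 days (0.42). Between 7 and 4 days the calls of tropomyosin alpha 4 over troponin T (-0.39) and of dystrophin over troponin T (-0.46) were lost in it (limma adjusted p = 0.0547 each).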
